A study of Mus musculus and Homo sapiens with 56 samples.

Results

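Kif26a, Gna14, Sema3e, Cyp1b1, Igfbp5, Greb1l, Aldh3b2, Lingo3 and Fhdc1 are 9 protein-coding genes, of 52459 in the deposited count table, whose RNA was scarce in wild-type mouse embryonic stem cells and plentiful in D395A cells. They were selected on their RNA level: a mean under 3 CPM (counts scaled to library size) in wild-type (WT) cells, a mean over 15 CPM in D395A cells, and no exonic base shared with a gene of the other strand. In all, 64 genes met those conditions, 0.122% of that table. Of the 9 genes, 8 met them, and Greb1l did not, with a WT mean of 5.23 CPM, so it is described here as a named gene outside the WT threshold. Because the WT and D395A levels chose these genes, their difference is given as a description, with no test.

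Both groups are E14TG2a, a male mouse embryonic stem cell line, grown on gelatin in serum-free N2B27 medium with LIF, a MEK inhibitor and a GSK3β inhibitor, and labelled untreated. WT samples carry the name of the line itself, and the labels give the other line only as D395A, without naming the gene or the number of clones. In the METTL3 field D395A is a catalytically inactive form of METTL3, the enzyme that writes most N6-methyladenosine (m6A) into RNA, and an RNA count cannot check such a point mutation. RNA-seq of total RNA depleted of ribosomal RNA was deposited for 2 WT and 2 D395A libraries. The labels do not say whether replicates came from separate cultures, so p-values measure only the spread between these libraries, which may be technical. Peaks of m6A came as 1 list per genotype from immunoprecipitated chromatin RNA, from 2 immunoprecipitated and 2 input libraries in WT and 1 of each in D395A.

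METTL3 deposits m6A during transcription, often in long internal exons and near the start of the last exon, and readers of the mark bring about RNA decay, splicing and, on chromatin, changes in histone marks. In embryonic stem cells it is best known for limiting the lifetime of transcripts of pluripotency and developmental genes. The 9 genes have no single pathway in common: they encode a kinesin-like protein, a G protein subunit, a secreted guidance cue, a growth factor carrier, enzymes of xenobiotic and aldehyde metabolism, a hormone-response protein, a neuronal membrane protein and a formin.

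The libraries held 13953069 and 19246342 assigned reads in WT and 12743677 and 18151353 in D395A. With 17778 genes tested, edgeR's quasi-likelihood test with Benjamini-Hochberg adjustment called 36.8% higher and 34.3% lower in D395A at 0.05, so a call alone sets no gene apart here. Markers of embryonic stem cells summed to 6440 and 6310 CPM in WT and to 3260 and 3320 CPM in D395A, with 7 of 10 called lower, 1 higher and none at 0. Fibroblast markers summed to 10.5 and 10.7 CPM in WT and to 8.43 and 7.43 CPM in D395A. Of these 9 markers 1 was higher and 2 lower, and S100a4 was at 0 in all 4 libraries. Dcn had 0 CPM in WT and 2.13 and 1.65 CPM in D395A. Col1a1 went from 4.1 and 4.02 to 1.44 and 1.65 CPM, and Col1a2 from 1.42 and 1.66 to 0.608 and 0.212 CPM. Sums in WT and D395A were 19.1 (both WT libraries) and 32.1 to 35.0 CPM for primitive endoderm (2 of 7 higher, 1 lower), and 91.7 to 92.5 and 99.0 to 105 CPM for trophoblast (3 of 7 higher, 1 lower, Elf5 at 0 in D395A). For neural progenitors they were 58.6 to 65.1 and 71.2 to 72.6 CPM (3 of 6 higher, 1 lower), and for endothelial or mesenchymal cells 370 and 231 to 242 CPM (2 of 6 higher, 3 lower). Among single markers, Pax6 of the neural list had 0.373 and 0.375 CPM in WT and 15 and 16 CPM in D395A, and is itself among the 64 genes. The mesenchymal and neural cadherin gene Cdh2 had 4.7 and 5.25 CPM against 39.3 and 39.0 CPM. Other single markers fell from WT to D395A. Tubb3 of the neural list went from 43.6 and 39.8 to 22.3 and 23.0 CPM. Pecam1 of the endothelial or mesenchymal list went from 169 and 172 to 45.6 and 52.4 CPM. Eomes of the trophoblast list went from 13.6 and 14.2 to 2.13 and 2.02 CPM. Gata4 of the primitive endoderm list went from 8.13 and 7.98 to 1.44 and 1.86 CPM. Of the same list, Dab2 rose from 4.4 and 4.93 to 20.5 and 24.9 CPM. Cubn rose from 0.447 and 0.321 to 3.42 and 2.65 CPM. Of the trophoblast list, Cdx2 rose from 0.895 and 0.75 to 3.95 and 3.24 CPM. Krt18 rose from 3.88 and 3.7 to 8.2 and 7.43 CPM, and Tfap2c from 51.5 and 54.6 to 71.5 and 68.7 CPM. The part of these shifts in the levels below was not tested. In bulk RNA, more cells that express a gene and more RNA per cell cannot be told apart.

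Promoter sequences, from RefSeq on GRCm38.p6, were found for 7 of the 9 genes, in 9 windows of 250 bases before and 50 after a start. The 250 bases before the start of Cyp1b1, Kif26a and Gna14 are shown because they hold, in turn, the gene with the best known regulator, the gene with the highest fold and the window poorest in CpG. Capitals mark the letters GCGTG, the core of the element bound by the aryl hydrocarbon receptor, read on either strand (CACGC where it lies on the other strand).
Cyp1b1, 17:79715062-79715311, minus strand: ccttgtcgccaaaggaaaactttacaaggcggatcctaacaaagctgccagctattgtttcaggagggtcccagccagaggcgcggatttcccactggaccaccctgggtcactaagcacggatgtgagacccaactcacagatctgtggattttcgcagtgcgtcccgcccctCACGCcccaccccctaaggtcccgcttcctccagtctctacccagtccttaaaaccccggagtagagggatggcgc
Kif26a, 12:112145958-112146207, plus strand: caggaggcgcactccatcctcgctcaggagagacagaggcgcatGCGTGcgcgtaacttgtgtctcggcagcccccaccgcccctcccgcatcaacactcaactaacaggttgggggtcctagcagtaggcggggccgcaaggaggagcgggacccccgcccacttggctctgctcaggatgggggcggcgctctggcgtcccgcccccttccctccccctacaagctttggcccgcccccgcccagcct
Gna14, 19:16435417-16435666, plus strand: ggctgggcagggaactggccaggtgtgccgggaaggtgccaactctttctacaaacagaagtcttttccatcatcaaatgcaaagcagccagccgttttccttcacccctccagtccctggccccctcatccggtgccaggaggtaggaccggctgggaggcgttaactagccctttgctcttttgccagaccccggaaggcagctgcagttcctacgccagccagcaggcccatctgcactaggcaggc
In windows of 300 bases, the CpG observed/expected ratio was 0.28 in Gna14, 0.42 in Igfbp5, 0.579 in Sema3e, 0.642 in Cyp1b1 and 0.733 in Kif26a. The starts of Fhdc1 had 0.78 and 0.778, and those of Lingo3, whose windows overlap, had 0.973 and 0.71. Across 32851 promoters of the table, Gna14 lay at the 39.5 percentile and the other windows between the 52.8 and the 92.5 percentile. By this ratio Gna14 thus lay below the middle of all promoters and the others above it, Igfbp5 only narrowly. GCGTG occurred in the windows of Fhdc1, Lingo3, Kif26a and Cyp1b1 and not in those of Igfbp5, Sema3e and Gna14, while 32.4% of all promoters hold it. TATAAA and CCAAT, held by 13.6% and 37.4% of all promoters, occurred in none of the 9 windows. GGGCGG, held by 35.7%, occurred in windows of Fhdc1, Sema3e, Lingo3, Kif26a and Cyp1b1, and CACGTG, held by 7.15%, in those of Sema3e and Lingo3. By G+C share, the windows of Fhdc1, Lingo3 and Kif26a lay between the 83.0 and the 94.3 percentile of all promoters. Cyp1b1 lay at the 66.3, Gna14 at the 65.4, Igfbp5 at the 60.6 and Sema3e at the 41.7 percentile. The part of G+C in the matches was not tested. Both strands were searched and the 5 words do not contain one another. A match to such letters is a description, not a binding site.

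In the count table the 9 genes went from levels at the bottom of the tested range to its middle or upper part. As reads per kilobase of exon and scaled to library size (RPKM), their WT means ran from 0.0799 to 0.479, the 6.07 to 18.2 percentile of tested genes. In D395A they ran from 3.08 to 16.2 RPKM, the 41.4 to 77.2 percentile. In order of D395A RPKM the genes were Kif26a, Greb1l, Gna14, Igfbp5, Aldh3b2, Cyp1b1, Lingo3, Sema3e and Fhdc1. Among neighbours in that order, Kif26a (15.6 and 16.8 RPKM) overlapped Greb1l (14.9 and 15.7), and Aldh3b2 (10.0 and 9.15) overlapped Cyp1b1 (9.11 and 9.45). The other neighbours did not overlap between their 2 libraries.

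**Figure D1:**
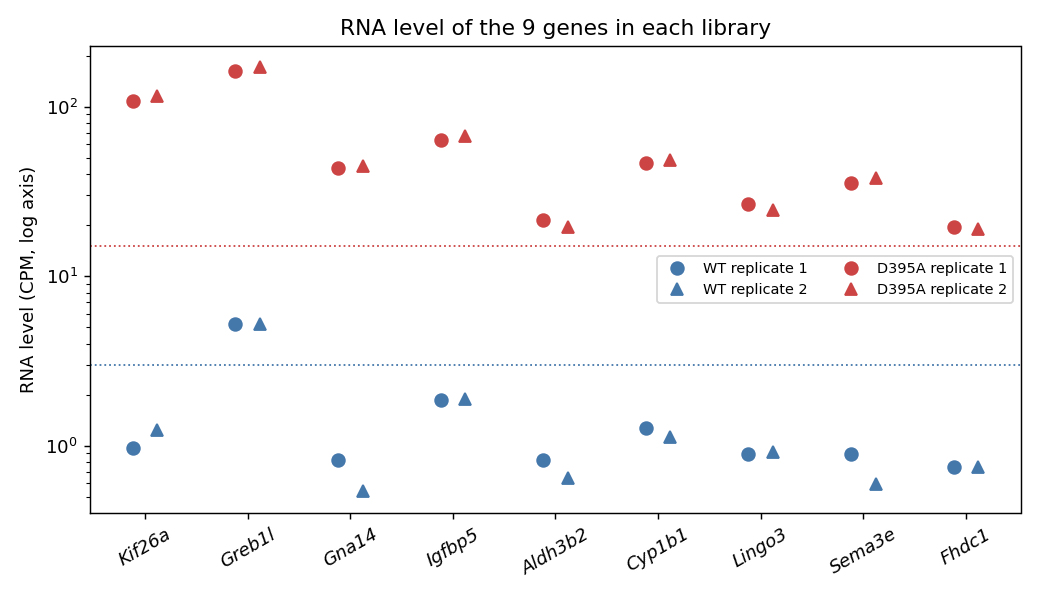
RNA level of the 9 genes, in CPM on a log axis, with 1 point per library (circles replicate 1, triangles replicate 2, blue WT, red D395A) and dotted lines at the thresholds of 3 and 15 CPM. Genes stand in order of D395A RPKM; in each gene both D395A libraries lie above both WT libraries, and Greb1l is the gene above the lower line in WT.

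Kif26a (chromosome 12, 112146208 to 112181747, plus strand, 16 merged exons over 35.5 kb) encodes an unconventional kinesin (coordinates throughout are those of the count table, build mm10) known to restrain GDNF-Ret signalling in enteric neurons. It had 13 and 23 counts in WT against 1422 and 2192 in D395A, or 0.970 and 1.23 CPM against 108 and 116 CPM. The D395A mean was 102 times the WT mean (log2 fold change 6.64), the highest fold of the 9. The lower D395A library was 87.7 times the higher WT library. Among the 64 genes that met the conditions Kif26a ranked 2 by fold, after Foxa2.

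Gna14 (chromosome 19, 16435667 to 16610818, plus strand, 7 merged exons over 175 kb) encodes a G protein alpha subunit of the Gq class, which passes receptor signals to phospholipase C beta. It had 11 and 10 counts in WT and 571 and 837 in D395A, which is 0.820 and 0.536 CPM against 43.4 and 44.4 CPM. The means were 0.678 ± 0.201 and 43.9 ± 0.744 CPM (SD, n = 2 each), 64.7 times apart. The WT libraries differed more from each other in proportion than the D395A libraries, at counts near 10.

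Sema3e (chromosome 5, 14025276 to 14256689, plus strand, 16 merged exons over 231 kb) encodes a secreted class 3 semaphorin that guides axons and vessels through the receptor plexin D1. Its counts were 12 and 11 in WT and 466 and 715 in D395A, or 0.895 and 0.589 CPM against 35.4 and 37.9 CPM, a 49.4-fold difference of means. Sema3e had the lowest WT level per length of the 9 genes, 0.0964 and 0.0635 RPKM, and in D395A only Fhdc1 was lower per length.

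Igfbp5 (chromosome 1, 72857932 to 72874884, minus strand, 4 merged exons over 17.0 kb) encodes a secreted binding protein for insulin-like growth factors. It had 25 and 35 counts in WT and 838 and 1259 in D395A, or 1.86 and 1.87 CPM against 63.6 and 66.8 CPM. The difference of means was 34.9-fold. Its 2 WT libraries lay closer together than those of Gna14 or Sema3e.

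Greb1l (chromosome 18, 10325177 to 10562934, plus strand, 33 merged exons over 238 kb), a relative of the estrogen-responsive gene Greb1 that is needed for kidney development, had the highest CPM of the 9 in both groups. Counts were 70 and 98 in WT and 2147 and 3225 in D395A, or 5.22 and 5.25 CPM against 163 and 171 CPM. The means differed 31.9-fold, a fold within the range of the other 8 genes although its WT level was above the threshold. Its exonic length of 10927 bases is the longest of the 9, so per length its D395A level of 15.3 RPKM was below that of Kif26a at 16.2 RPKM.

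The enzymes were Cyp1b1 and Aldh3b2. Cyp1b1 (chromosome 17, 79706953 to 79715041, minus strand, 3 merged exons over 8.09 kb), a cytochrome P450 that oxidises estrogens, retinol and polycyclic hydrocarbons, had 17 and 21 counts in WT and 615 and 913 in D395A. Those counts are 1.27 and 1.12 CPM against 46.7 and 48.5 CPM, a 39.8-fold difference of means. Aldh3b2 (chromosome 19, 3972328 to 3981645, plus strand, 10 merged exons over 9.32 kb), an aldehyde dehydrogenase of the lipid aldehyde class, had 11 and 12 counts in WT and 282 and 369 in D395A. Its levels were 0.820 and 0.643 CPM against 21.4 and 19.6 CPM, 28.0-fold apart. Aldh3b2 has the close tandem relative Aldh3b3 225 bases upstream, to which no read was assigned in any library, and how the counting treated reads shared by both copies is not given, so its level is uncertain in that respect.

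Lingo3 (chromosome 10, 80832801 to 80844039, minus strand, 3 merged exons over 11.2 kb) encodes a leucine-rich repeat membrane protein related to the Nogo receptor partner LINGO1. It had 12 and 17 counts in WT and 350 and 462 in D395A, or 0.895 and 0.911 CPM against 26.6 and 24.5 CPM, a 28.3-fold difference. Fhdc1 (chromosome 3, 84442198 to 84480429, minus strand, 14 merged exons over 38.2 kb) encodes a formin that acts on actin and on microtubules. It had 10 and 14 counts in WT and 258 and 358 in D395A, or 0.746 and 0.750 CPM against 19.6 and 19.0 CPM. At 25.8-fold its difference was the smallest of the 9.

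Across the 9 genes, the second D395A library stood at 0.914 to 1.08 times the first, and the second WT library at 0.653 to 1.27 times the first. The lower D395A library exceeded the higher WT library 23.9-fold to 87.7-fold. No exonic base of the 9 lies inside the body of a gene on the opposite strand, and none is shared with a gene on the same strand. Just inside the D395A threshold lay Fam171b at 15.2 CPM and, nearer still, Nfe2l3, and just outside lay Igfbp4 at 14.9 and Zfp202 at 14.7 CPM. At the WT threshold Nfe2l3 and Tspan7 were inside at 2.98 CPM each, with Lrfn3 at 3.00 and Zdhhc1 at 3.06 CPM outside. The plot of WT against D395A means shows the 9 genes among the other genes that met the conditions.

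**Figure D2:**
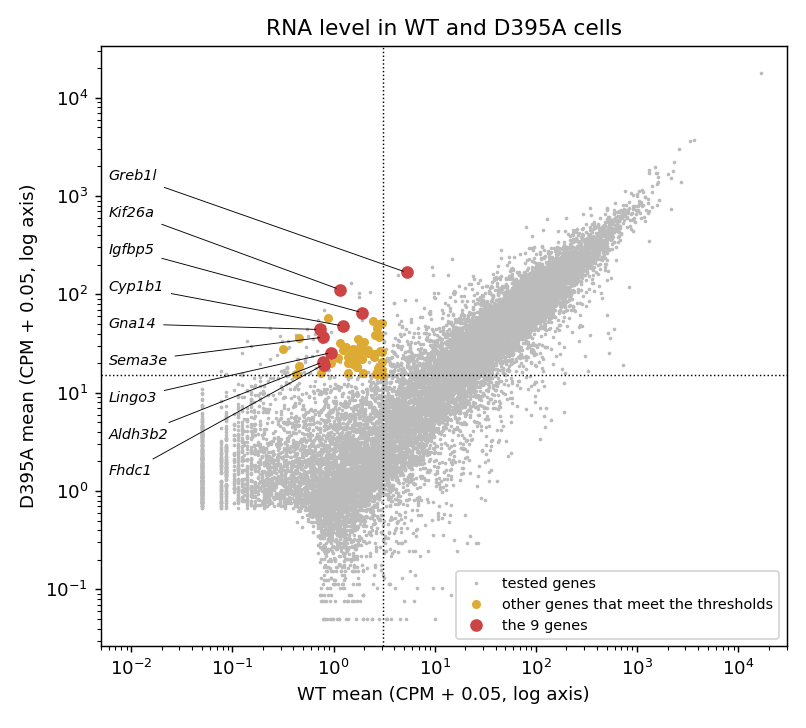
Mean RNA level in WT (x axis) and D395A (y axis) cells, as CPM plus 0.05 on log axes, for 17778 tested genes (grey), the 9 genes (red) and the 56 other genes that met the conditions (yellow), with dotted lines at the thresholds. Grey points in the upper left field are genes with exonic overlap on the opposite strand; 8 of the 9 genes lie in that field and Greb1l lies right of it.

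The genes whose 4 library levels lay nearest to the mean profile of the 9 (1.24, 1.14, 46.0 and 46.5 CPM) were Zfp618, Zfhx4, Dtx4, Fgfr2 and Prkar2b, followed by Prrt4, Sox3, Zfp629, Tshz1 and Cdk14. Likeness was the Euclidean distance of log2(CPM + 0.5) over the 4 libraries, which is dominated by the WT to D395A difference. Zfp618, a zinc finger gene, was at a distance of 0.751, with 1.04 and 1.18 CPM in WT and 31.8 and 32.5 CPM in D395A. The fibroblast growth factor receptor gene Fgfr2 was at 0.948 (1.19 and 1.39 against 29.5 and 28.9 CPM), and Cdk14 closed the list at 1.17. Of the 9 genes, Cyp1b1 lay closest to their mean profile at 0.0684 and Greb1l farthest at 3.60.

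The deposited WT list of m6A peaks held an exonic peak in most of the 9 genes. Within their bodies, peaks of the D395A list had lower fold enrichments, as in that list as a whole. In WT, 7 of the 9 genes had a peak on an exon, where 61.0% of tested genes and 41.6% of tested genes under 3 CPM in WT had one. Cyp1b1 and Aldh3b2 had no peak in their bodies in either list. Among the 56 other genes that met the conditions, 75.0% had a WT exonic peak, close to the 7 of 9 here. By gene body, 7 of the 9 genes had a WT peak (66.5% of tested genes). The 7 genes include bodies of over 100 kb, and their median exonic length (6010 bases over the 9) exceeded that of tested genes (3530 bases), and the part of length in these counts was not tested. Fold enrichment below is the authors' own value for a peak over input, and with 1 list per genotype there is no replicate check.

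Of the 25 WT peaks in these gene bodies, 15 overlapped an exon and 10 were entirely intronic, and the strongest peaks of Kif26a, Sema3e, Igfbp5, Lingo3 and Fhdc1 were exonic. In Kif26a the leading peak spanned 3113 bases at exon 12 of 16, with 93.0% of it exonic, a fold enrichment of 22.4 and −log10 q of 69.7, and weaker peaks lay at exon 6 (5.26) and in the last exon (7.01). Sema3e held the highest fold enrichment of the 9 genes, 26.3 in its last exon (−log10 q 86.8, in the top 9.08% of the list by p), with a second peak of 11.9 in exon 1. The 3 intronic WT peaks of Sema3e, between 153 and 186 kb from its start, had fold enrichments of 11.2, 15.9 and 14.0. In Fhdc1 a peak of 2621 bases covered much of the last exon at 21.4, and another of 7.71 lay on exon 4 of 14.

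Lingo3 had a single WT peak, 3495 bases wide with its summit in the last exon, at 17.1, and Igfbp5 had peaks of 17.2 and 3.15, both inside its last exon. Gna14 had its leading peak in exon 1, 615 bases from the start, at 6.31, the same as the median of the whole WT list, which was 6.31. Greb1l differed from the rest in that its highest WT peaks, 14.0 and 9.0, were intronic, and those on exons 19, 22 and 26 to 27 reached 2.93, 4.15 and 5.36. In 5 of the 7 genes a WT peak touched the last exon, and Gna14 and Greb1l were the exceptions; of tested genes with a WT body peak, 71.9% had one there, so 5 of 7 is near the usual share. Over the 7 genes with an exonic WT peak, the median of the best exonic fold enrichment was 17.2. It was 12.5 in 42 of the 56 other genes and 8.27 in tested genes with such a peak. In tested genes under 3 CPM in WT with such a peak it was 8.14. The medians of the best −log10 q were, in the same order, 58.5, 32.8, 51.0 and 26.9.

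**Figure D3:**
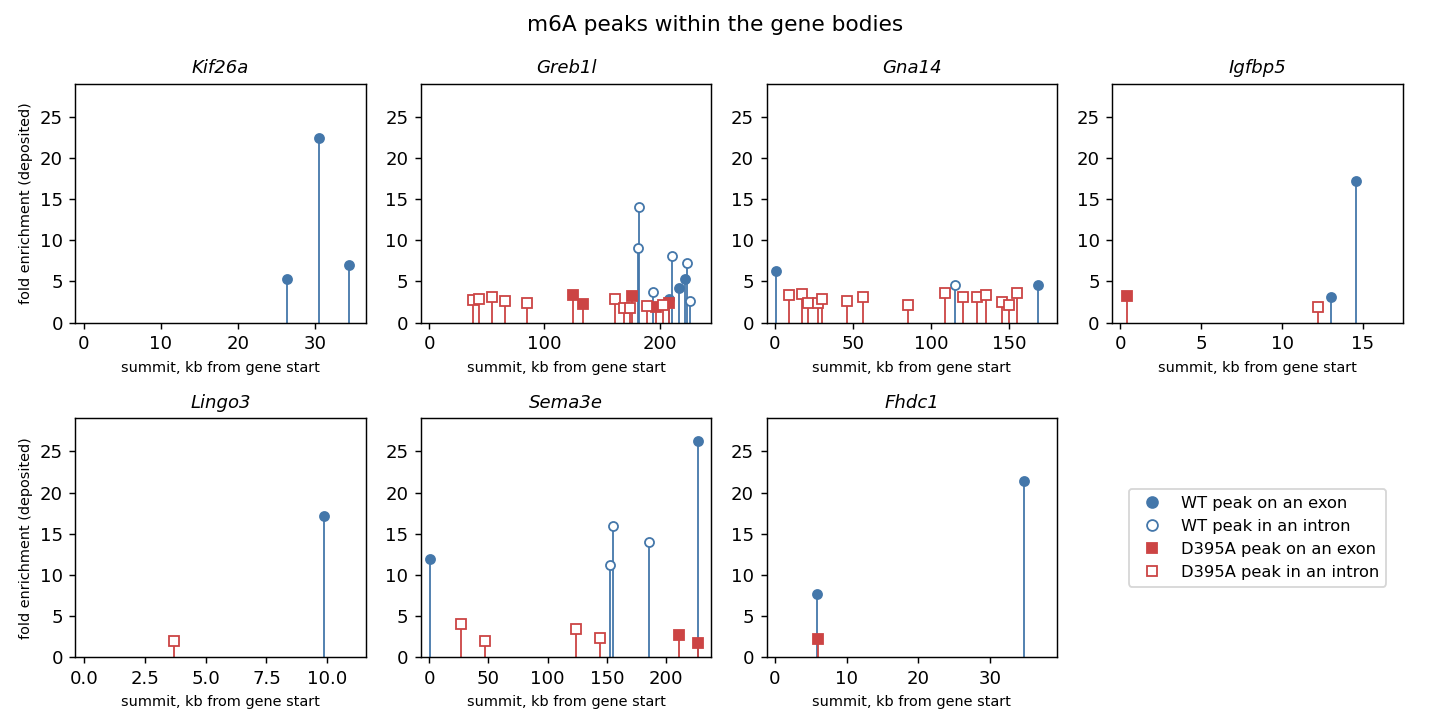
Deposited m6A peaks within the bodies of the 7 genes that had any, by distance of the summit from the gene start in kb (x axis, scaled to each gene) and the authors' fold enrichment (y axis, 0 to 29 in every panel). Blue circles are WT peaks and red squares D395A peaks, filled where the peak overlaps an exon; the highest WT peaks reach 26.3 in Sema3e and 22.4 in Kif26a, and no D395A peak exceeds 4.08.

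In the D395A list, made from 1 immunoprecipitated library at a looser threshold (p below 0.05, with no limit on q), 6 of the 9 genes had a body peak (52.6% of tested genes) and 4 an exonic one (37.2% of tested genes). Of tested genes over 15 CPM in D395A, the level the 9 genes reached there, 73.6% had a body peak and 55.7% an exonic one. With q below 0.05, the limit that the WT list keeps to, 2 of the 9 genes kept a body peak. The share was 17.3% of tested genes and 28.2% of those over 15 CPM in D395A. None of the 9 genes kept an exonic one, against 11.8% of tested genes and 20.1% of those over 15 CPM in D395A. At that limit, 14.3% of the 56 other genes that met the conditions had a body peak and 5.36% an exonic one. Where the 9 genes had an exonic D395A peak, the median of the best one was 2.96, near the 2.63 of the other 56 genes and the 2.92 of tested genes. The 2 body peaks with q below 0.05 were intronic, at 3.35 in Gna14 and at 4.08 in Sema3e, the highest D395A value in the 9 gene bodies. The flanks of 100 kb held 55 WT and 54 D395A peaks. A D395A flank peak 48.3 kb upstream of Lingo3, within Tmprss9, reached 27.1 (−log10 q 77.9, in the top 0.0206% of the list by p). No WT peak overlapped it, and the other D395A flank peaks reached at most 4.71.

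Of the 40 D395A peaks in the 9 gene bodies, 31 (77.5%) were entirely intronic, as were 10 of the 25 WT peaks (40%). Over all tested genes the shares were 67.0% and 31.2%, and over tested genes with a body longer than 100 kb 83.9% and 57.5%, so intronic peaks were more common in the D395A list at large. Of the 40, 15 lay in Gna14, all in introns and spread from 9.11 to 155 kb from its start, and 15 in Greb1l, the genes of 175 and 238 kb. Kif26a, with over 100 CPM in D395A, had no D395A peak, and in Lingo3 the D395A list had 1 intronic peak of 2.04. A WT peak was overlapped by 3 of the 40 (7.5%), beside 11.4% of D395A peaks in tested genes and 8.42% of those in tested genes longer than 100 kb. These were in the last exon of Sema3e (1.79 against 26.3 in WT), on exon 4 of Fhdc1 (2.20 against 7.71) and on exon 19 of Greb1l (2.35 against 2.93), where 30 bases were shared. The lists differ in libraries, threshold and typical strength (median fold enrichment 2.66 in D395A and 6.31 in WT), and the input coverage of each gene was not analysed here, so the values stand side by side and were not tested.

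Within 100 kb of the 9 gene bodies lay 57 other genes of the count table, of which 32 had enough counts to be tested. By edgeR's quasi-likelihood test, 8 of these were higher in D395A (25.0%, against 36.8% of all tested genes), 11 were lower (34.4%, against 34.3%) and 13 were not called. Their median log2 fold change was -0.01, beside 0.00 for all tested genes, and 2 rose and 4 fell at least 2-fold. These shares are near or below the background. With no filter on low counts 12 neighbours were higher.

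**Figure D4:**
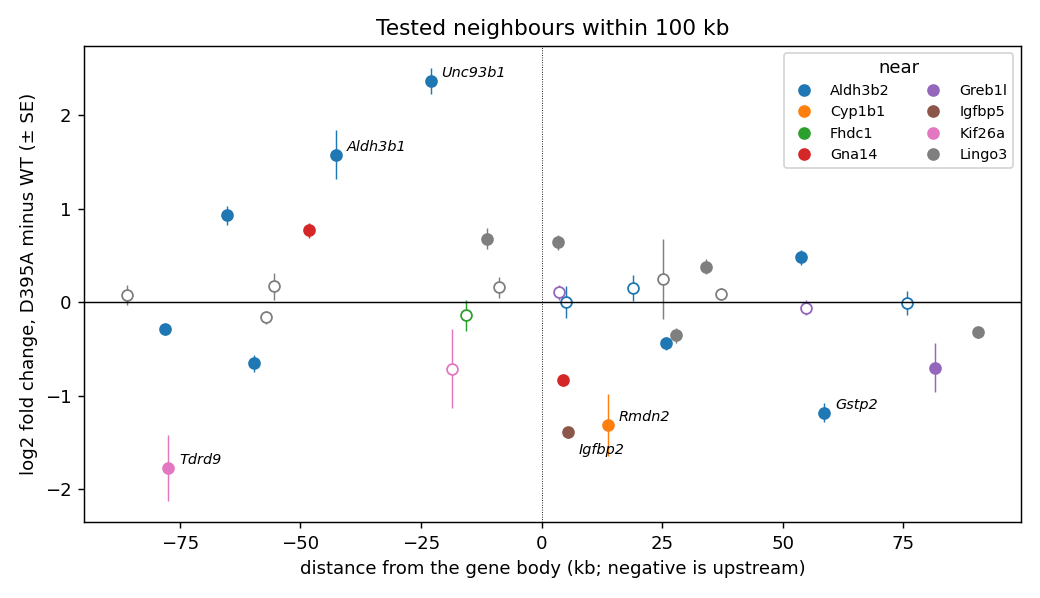
Log2 fold change of the 32 tested neighbours (D395A minus WT, bars SE) against their distance from the gene body in kb, negative upstream, coloured by the gene they lie near, filled where called by edgeR. Points scatter about 0, from -1.77 (Tdrd9) to 2.37 (Unc93b1), and the genes at 2-fold or more are named.

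Both tested neighbours that rose at least 2-fold lie near Aldh3b2. Unc93b1, which carries nucleic acid-sensing Toll-like receptors to endosomes, lies 23.0 kb upstream. It had 4.18 and 3.48 CPM in WT and 19.3 and 20.0 CPM in D395A (log2 fold change 2.37 ± 0.14, SE, edgeR adjusted p 1.88e-09). Aldh3b1, a paralog 42.6 kb upstream on the opposite strand, had 1.79 and 1.45 CPM against 4.1 and 5.36 CPM (1.58 ± 0.26, edgeR adjusted p 8.38e-05). The groups did not overlap in either gene, and both folds were below the 28.0-fold of Aldh3b2. Acy3, 5.02 kb downstream, was not called (7.61 and 6.27 against 6.61 and 7.06 CPM), and Gstp2, a glutathione transferase gene 58.6 kb downstream with near-identical relatives, fell (log2 fold change -1.18 ± 0.10).

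Next to Igfbp5, the single neighbour was its relative Igfbp2, 5.46 kb downstream on the opposite strand, and it moved the other way. Igfbp2 fell from 153 and 157 CPM to 58.3 and 60.2 CPM (log2 fold change -1.39 ± 0.06, edgeR adjusted p 1.11e-10). Near Gna14, the paralog Gnaq lies 48.2 kb upstream on the same strand and rose from 49.9 and 46.2 to 75.9 and 86.9 CPM (0.77 ± 0.08, edgeR adjusted p 6.95e-07). Vps13a, a lipid transfer gene 4.55 kb downstream of Gna14, fell (-0.83 ± 0.06, edgeR adjusted p 3.13e-08). So the nearest tested genes on the 2 sides of Gna14 moved in opposite directions, each less than 2-fold.

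Near Kif26a, Tdrd9, a germline gene of transposon control 77.4 kb upstream, fell from 2.46 and 2.52 to 0.911 and 0.584 CPM (-1.77 ± 0.35, edgeR adjusted p 3.95e-04). Aspg, 18.6 kb upstream of Kif26a, was not called (0.820 and 1.39 against 0.835 and 0.584 CPM). Rmdn2, 13.8 kb downstream of Cyp1b1, fell from 29 and 68 counts to 18 and 20 (-1.31 ± 0.33, edgeR adjusted p 2.83e-03), and without the second WT library it was not called (-0.85, edgeR adjusted p 0.150). Esco1, 3.67 kb downstream of Greb1l, was not called (50.7 and 57.4 against 61.6 and 55.8 CPM), nor was Arfip1, 15.7 kb upstream of Fhdc1 (6.26 and 7.66 against 6.68 and 6.10 CPM). Around Lingo3, Oaz1, which encodes ornithine decarboxylase antizyme and lies 3.51 kb downstream, rose from 91.4 and 100 to 161 and 138 CPM (0.64 ± 0.08, edgeR adjusted p 3.91e-06). Lsm7, 8.78 kb upstream of Lingo3, was not called (29.8 and 26.5 against 35.8 and 27.5 CPM). The 3 neighbours of Sema3e lie inside its body and had too few counts to be tested. All had 0 counts in both WT libraries, and in D395A Gm43519 had 4 and 14, Gm43523 6 and 8, both on the strand of Sema3e, and Gm4128 on the other strand 5 and 1. Near Lingo3 the untested Tmprss9 had 1 and 0 counts in WT and 6 and 8 in D395A.

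Relatives and partners of the 9 genes were followed in 9 lists of their families, ligands and receptors. The lists were drawn up by function but with earlier results of these data known. Their shares are thus a description, and their distance from the background was not tested. Over 140 tested genes of these lists, 74 (52.9%) were called higher and 44 (31.4%) lower by edgeR, with a median log2 fold change of 0.29, beside 36.8%, 34.3% and 0.00 over all tested genes.

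**Figure D5:**
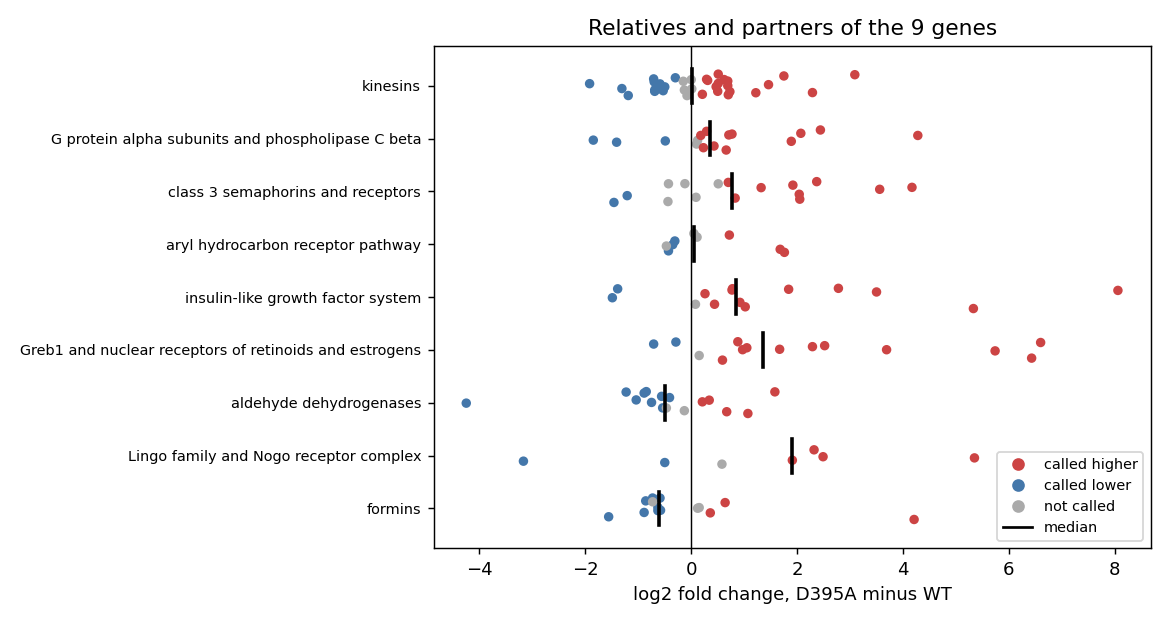
Log2 fold change (D395A minus WT) of each tested relative or partner of the 9 genes, 1 row per list, red where called higher, blue where called lower and grey where not called by edgeR, with the list's median as a black bar. The list medians run from -0.61 (formins) to 1.91 (Lingo family and Nogo receptor complex), and the 9 genes themselves are left out.

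Of 35 tested kinesins, 17 (48.6%) were higher and 13 (37.1%) lower, beside 36.8% and 34.3% of all tested genes, with a median of 0.01. Kif26b, the paralog of Kif26a, rose from 0.970 and 1.45 to 2.89 and 3.87 CPM (1.46 ± 0.30, edgeR adjusted p 5.87e-04). Kif21a, which restrains microtubule growth, rose 8.51-fold, while Kif5a, a motor of axonal transport, fell 2.48-fold and Kifc3 fell 2.28-fold, with 27.5% of the exonic bases of Kifc3 overlapped on the other strand. None of the other 38 kinesin genes in the table met the conditions that chose Kif26a.

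Of 16 tested G protein alpha and phospholipase C beta genes, 11 (68.8%) were higher and 3 (18.8%) lower, with a median of 0.36. Over all tested genes the shares were 36.8% and 34.3%. Gna11, with Gnaq and Gna14 a member of the Gq class, rose from 74.9 and 73.1 to 100 and 99.3 CPM (0.43 ± 0.06, edgeR adjusted p 2.17e-05). Gna15, also of the Gq class, fell from 21.3 and 19.4 to 14.5 and 14.4 CPM (-0.49 ± 0.10), so the class moved both ways. Gnaz, an inhibitory alpha subunit, rose 4.18-fold, and the olfactory-type alpha subunit gene Gnal fell 3.60-fold. Of the effector genes, Plcb4 fell 2.65-fold, while Plcb1 rose 5.41-fold, Plcb3 rose 1.22-fold and Plcb2 was called higher on 0 and 1 counts in WT against 10 and 14 in D395A. Gna15, Plcb1, Plcb2 and Plcb3 were named after their values were seen.

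Of 16 tested class 3 semaphorin and receptor genes, 9 (56.2%) were higher and 2 (12.5%) lower, with a median of 0.76. Over all tested genes the shares were 36.8% and 34.3%. Plxnd1, the receptor gene for Sema3e, rose from 3.58 and 3.64 to 15.3 and 14.8 CPM (2.05 ± 0.15, edgeR adjusted p 1.40e-08). Sema3c rose from 0.671 and 0.375 to 9.04 and 9.29 CPM, and the plexin gene Plxna2 rose 2.50-fold. Other class 3 semaphorins, named after their values were seen, moved both ways. Sema3b fell 2.75-fold, from 17.4 and 17.9 to 6.38 and 6.42 CPM. Sema3a and Sema3d were called higher and Sema3f was not called. The co-receptor gene Nrp2 fell 2.32-fold, and the other neuropilin gene, Nrp1, named after its values were seen, rose 4.12-fold.

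Around Cyp1b1, a classical target of the aryl hydrocarbon receptor, 3 of 9 tested genes of the pathway were higher and 3 lower, with a median of 0.05, which is near the 36.8%, 34.3% and 0.00 of all tested genes. The receptor gene Ahr rose from 12.4 and 14.0 to 40.7 and 44.3 CPM (1.68 ± 0.09, edgeR adjusted p 9.61e-10). Cyp1a1, another classical target, rose from 1.42 and 1.77 to 6.15 and 4.88 CPM (1.76 ± 0.25, edgeR adjusted p 1.95e-05), a smaller fold than the 39.8-fold of Cyp1b1. The partner gene Arnt fell by 0.43 and the target Nqo1 by 0.35 on the log2 scale, the target Tiparp rose by 0.72, and Ahrr and Aldh3a1 were not called. Arnt, Nqo1, Tiparp, Ahrr and Aldh3a1 were named after their values were seen.

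In the insulin-like growth factor system of Igfbp5, 11 of 14 tested genes (78.6%) were higher and 2 (14.3%) lower, with a median of 0.85. Over all tested genes the shares were 36.8% and 34.3%. The binding protein genes split: Igfbp4 rose 6.89-fold (2.68 and 1.77 to 14.2 and 15.6 CPM), Igfbp3 rose 1.72-fold and Igfbp2 fell 2.62-fold. The receptor gene Igf1r rose from 56.8 and 52.6 to 84.8 and 101 CPM (0.77 ± 0.08, edgeR adjusted p 1.16e-06). The ligand gene Igf1, named after its values were seen, had no count in WT and 29 and 37 counts in D395A and was called higher (edgeR adjusted p 1.64e-06). The ligand gene Igf2 was called higher at a small fold (0.44 ± 0.15, edgeR adjusted p 0.018), and the call was lost without the second D395A library (0.22, edgeR adjusted p 0.248), without the first WT library (0.30, edgeR adjusted p 0.143) and by DESeq2 (adjusted p 0.0854). The adaptor genes Irs1 and Irs2 rose 11.3-fold and 3.58-fold, and 30.9% of the exonic bases of Irs1 are overlapped on the other strand.

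With Greb1l were grouped Greb1, the nuclear receptors of retinoids and estrogens, and genes that take up, carry or metabolise retinoids. Of 14 tested, 11 (78.6%) were higher and 2 (14.3%) lower, beside 36.8% and 34.3% of all tested genes, with a median of 1.36. Greb1 rose from 5.07 and 3.75 to 12.9 and 14.6 CPM (1.67 ± 0.16, edgeR adjusted p 4.21e-07), against the 31.9-fold of Greb1l. Stra6, the retinol uptake receptor gene, rose from 0.447 and 0.375 to 34.9 and 36.2 CPM and is itself among the 64 genes that met the conditions. Crabp2, which carries retinoic acid to the nucleus, rose 12.9-fold and Rxra, a retinoid receptor gene, 2.07-fold. The 2 lower genes, named after their values were seen, were Crabp1 (-0.29 ± 0.12) and Dhrs3 (-0.71 ± 0.20).

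Of 16 tested aldehyde dehydrogenases, 5 were higher and 9 lower, with a median of -0.50, or 31.2% and 56.2%, beside 36.8% and 34.3% of all tested genes. Besides Aldh3b1, Aldh18a1, an enzyme of proline synthesis, rose 2.09-fold. Aldh1l1 of folate metabolism fell 2.34-fold and Aldh6a1 of valine breakdown fell 2.05-fold, with 11% and 18.6% of their exonic bases overlapped on the other strand. Aldh1a3, named after its values were seen, had the largest fold of the list. It fell 19.0-fold, from 37 and 43 counts in WT to 1 and 3 in D395A. Of 14 tested formins, 3 (21.4%) were higher and 8 (57.1%) lower, with a median of -0.61. Inf2, a formin related to Fhdc1, rose 1.56-fold and Fmnl1 fell 2.96-fold. Daam2 was called higher on 1 count in WT against 23 in D395A, a ratio of 23.0 with an exact 95% counting interval of 3.74 to 949, which covers counting error only.

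Of 7 tested genes of the Lingo family and Nogo receptor complex, 4 (57.1%) were higher and 2 (28.6%) lower. Over all tested genes the shares were 36.8% and 34.3%. The list's median of 1.91 is the value of Lingo1. Lingo1 rose from 4.33 and 3.16 to 14.5 and 13.3 CPM (1.91 ± 0.17, edgeR adjusted p 1.19e-07). The co-receptor gene Tnfrsf19 rose 5.0-fold, and Ngfr, which encodes the co-receptor p75, fell 8.99-fold from 68.8 and 62.0 to 8.13 and 6.58 CPM. The co-receptor genes of this complex thus went in opposite directions.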

How the data were processed

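Gene counts were deposited by the authors as raw reads, beside each gene's exons and its summed exon length, per the file headers. Whether reads were counted by strand was not stated in the labels or headers. The count column spelled Da95A_1 was taken as the first D395A library, whose title differs from it in 1 character. The submitters' processing notes name HISAT2 2.1.0, Bowtie2 2.3.4.1, featureCounts 1.6.3, MACS2 2.1.1 and the build mm10 for mouse, with no role or order. The authors' peak lists give, per peak, a score (10 times −log10 of q in WT and of p in D395A, read from the values), a fold enrichment, −log10 p and −log10 q; peaks were called per genotype, and 2 unlabelled columns of the WT list were not used.

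Counts were fitted with edgeR 4.0.16 in R 4.3.3 (filterByExpr, TMM scaling with factors of 0.961 to 1.038, quasi-likelihood test, Benjamini-Hochberg adjustment over 17778 genes, threshold 0.05), tested on simulated data first. CPM used TMM library sizes, and RPKM the deposited exonic length. The SE of a log2 fold change was worked back from the test, as its absolute value divided by the square root of the F statistic. A neighbour is a gene whose body lies within 100 kb. Peaks were matched to bodies and exons with bedtools 2.31.1 at 1 bp or more, and exons are merged over transcripts. The members and lists were chosen with earlier results of these data known. Named besides the 9 genes were the nearest tested neighbour on each side and neighbours called at 2-fold or more, fixed close relatives, up to 3 called genes per list at 2-fold or more with the smallest adjusted p, and the 10 genes most like the mean profile. Alternatives were other scalings, filters, windows, overlaps and peak thresholds, a replicate block, DESeq2 1.42.0 and leaving out each library.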

Additional observations from a re-analysis of the deposited data

How the results depend on the processing

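The log2 fold changes of the 9 genes ran from 4.47 to 6.83 over 72 values under other scalings, a larger prior count and without each library. The same libraries chose the genes for a large difference, so a change of sign could hardly occur and its absence shows nothing. The largest shifts, from -0.33 to 0.28, came when a WT library was left out. Of all tested genes, 6550 were called higher; 4277 were left once genes overlapped on the other strand were not counted, since fewer genes enter. Leaving out each library gave 6030 to 6688 genes higher and 5126 to 6009 lower, and 61 to 69 genes that met the conditions. It gave 9 to 11 neighbours higher and 9 to 11 lower, and 68 to 76 list genes higher and 39 to 46 lower; the lone library of a group is then assumed to vary like the other group. Higher neighbours numbered 20 within 200 kb in place of 8, lower neighbours 5 within 50 kb in place of 11, as more or fewer genes enter. Lower list genes numbered 27 without overlapped genes in place of 44. Genes with a D395A body peak numbered 2 with q below 0.05 in place of 6, an alternative chosen after seeing the data. With a replicate block, 6656 genes were higher and 6239 lower, 8 and 12 neighbours, and 74 and 44 list genes; same-numbered libraries share only a number, and their deviations correlated at 0.139 over 10114 genes. Of 503 values for 47 named genes that are not among the 9, 497 kept their side of the threshold; Igf2 lost its call under 3 settings and Rmdn2 under 1, and Esco1 and Lsm7 were called without the second D395A library. Genes named after their values were seen are not among the 47, so these values do not cover them. At 10 to 98 counts per gene in WT, the WT levels of the 9 genes set the precision of the folds.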
